A study of Mus musculus with 374 samples.

Results

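The B cell receptor and immunoglobulin constant genes were followed across 5 sorted blood cell populations of 1 mouse. The group was set by gene symbol and holds 8 genes: Cd79a and Cd79b for the signalling chains, Ighm and Ighd for the heavy chain constant regions, Igkc for kappa, and Iglc1, Iglc2 and Iglc3 for lambda. Counts for 7 of these 8 genes were among the 19829 mouse genes of the count table, and Iglc2 was not analysed here.

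An antibody of the B cell surface pairs a heavy chain with a kappa or a lambda light chain, and each chain joins a variable part, made by rearrangement of gene segments, to a constant part. The constant part of mu gives IgM and that of delta gives IgD, both spliced from the same long transcript, and IgD joins IgM on B cells as they mature. The antibody itself has almost no cytoplasmic tail and signals through the Cd79a and Cd79b heterodimer. Developing B cells usually rearrange kappa first, turn to lambda when kappa fails, and as a rule keep a single light chain.

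The cells were taken from a C57BL/6 female aged 10 to 13 weeks, with no treatment named in the labels, and were index sorted as single cells into 1 plate for CEL-seq2, a protocol that counts the 3′ ends of transcripts by unique molecular identifiers (UMIs). Bone marrow gave 44 B lymphocytes (B220+ with low forward scatter), 95 progenitor/stem cells (Lin- Kit+ Sca1+), 96 granulocytes (Mac1+ Gr1+) and 96 erythroblasts (Ter119+ CD44+), and the thymus gave 43 T lymphocytes (CD3+ with low forward scatter). With a single mouse each population is 1 sample, so values carry 95% exact counting intervals (Poisson for a level, binomial for a share, conditional binomial for a ratio), which cover counting error only, and no difference between populations was tested. Levels are given as CPM, the UMIs of a gene scaled to a total of 1e+06 UMIs over the mouse genes of the summed wells. A UMI stands for 1 tagged 3′ end and is not divided by gene length, so every comparison between genes below is one of UMI numbers.

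The B lymphocyte wells held 135808 UMIs in all, with a median of 3028 per well and a range of 485 to 8330, while the other populations summed to between 200396 and 834812 UMIs with medians of 3880 to 7959. No cell barcode was shared between wells. Of B lymphocyte markers outside the group, Ms4a1, Ebf1, Pax5, Vpreb3 and Cd22 took 0.251% of the UMIs of the B lymphocytes and 0.00180% to 0.00649% elsewhere. In the B lymphocytes the 8 T lymphocyte markers summed to 0.00736% with Cd3g, Cd8b1 and Lck at 0, the 6 progenitor markers to 0.0155% with Meis1 at 0, the 8 granulocyte markers to 0.669% and the 7 erythroblast markers, mostly haemoglobins, to 2.92%. B lymphocyte wells are named here by plate row and column, and 3 of them stand apart, A8 and B6 because no member had a UMI there. Well B2 held 61 member UMIs, but its CD3 label was 7905 arbitrary units, against medians of 69 in B lymphocytes and 10475 in T lymphocytes, with no UMI on the 8 T lymphocyte markers. Well A8 (4531 UMIs) had the lowest B220 fluorescence of the 44 and a high Gr1 label, and granulocyte markers took 11.5% of its UMIs, and well B6 held only 485 UMIs.

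The lambda constant genes are shown first because the reading of a lambda count depends on how alike they are. These are the last 300 coding bases of each gene in the sense direction, ending with the stop codon, from the transcripts of GENCODE M21 (GRCm38, minus strand): Iglc3 at chr16:19065365-19065664, Iglc2 at chr16:19198536-19198835 and Iglc1 at chr16:19061752-19062051. Capitals mark the bases at which Iglc3 and Iglc2 differ from each other and, in the third line, those at which Iglc1 differs from Iglc3 or has a base that Iglc3 lacks.
Iglc3: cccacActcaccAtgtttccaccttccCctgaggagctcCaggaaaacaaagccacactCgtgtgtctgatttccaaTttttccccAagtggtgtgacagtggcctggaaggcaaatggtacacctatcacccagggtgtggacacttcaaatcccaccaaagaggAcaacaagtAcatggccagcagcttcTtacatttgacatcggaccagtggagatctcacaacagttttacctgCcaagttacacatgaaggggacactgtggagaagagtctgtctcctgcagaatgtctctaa
Iglc2: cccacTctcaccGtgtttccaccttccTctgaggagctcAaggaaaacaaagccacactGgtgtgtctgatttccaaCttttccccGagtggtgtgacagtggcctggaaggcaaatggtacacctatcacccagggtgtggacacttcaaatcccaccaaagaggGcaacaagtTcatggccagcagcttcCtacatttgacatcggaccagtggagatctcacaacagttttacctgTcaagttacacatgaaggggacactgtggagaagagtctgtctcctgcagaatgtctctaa
Iglc1: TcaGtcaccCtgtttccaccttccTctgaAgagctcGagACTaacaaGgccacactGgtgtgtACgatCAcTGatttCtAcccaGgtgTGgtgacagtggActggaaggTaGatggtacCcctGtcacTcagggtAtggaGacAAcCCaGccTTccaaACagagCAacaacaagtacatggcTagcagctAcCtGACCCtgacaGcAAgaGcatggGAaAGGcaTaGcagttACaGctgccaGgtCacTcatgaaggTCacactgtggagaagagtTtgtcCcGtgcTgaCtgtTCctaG
Iglc2 and Iglc3 were identical at 306 of 317 coding positions (96.5%) and shared an unbroken run of 79 coding bases, and their 3′ untranslated regions were 90.0% identical with a run of 39. A read from such a run cannot be assigned to either gene, so the Iglc3 counts are uncertain as to how reads of its near copy were treated. Iglc1 was identical to Iglc3 at only 74.5% of aligned coding positions and 52.5% of aligned 3′ untranslated positions.

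In the same annotation, which the counts need not have used, Cd79a lies at chr7:24897381-24902197 on the plus strand and Cd79b at chr11:106311341-106314762 on the minus strand, both protein coding. Ighm (chr12:113418558-113422730) and Ighd (chr12:113406604-113416324) are neighbours on the minus strand, and Igkc lies at chr6:70726435-70726966 on the plus strand, where the non-coding gene Gm30211 overlaps it on the same strand. The spans of Iglc1 (chr16:19061618-19062071) and Iglc3 (chr16:19065230-19065681) lie on the minus strand within the antisense gene 2010309G21Rik. Whether counting used strand is not given in the sources used here, so reads of the genes that overlap the light chain genes may be included.

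All 7 measured members were highest in B lymphocytes. Together they took 11678 CPM there (11111 to 12268), or 1586 UMIs, against 329 CPM in T lymphocytes, 307 CPM in progenitor/stem cells, 250 CPM in granulocytes and 162 CPM in erythroblasts. Each of the 7 was at least 4-fold higher in B lymphocytes than in each other population, where 4.21% of 3064 genes with at least 20 UMIs reached that fold against T lymphocytes, 2.48% of 7297 against progenitor/stem cells, 5.83% of 3828 against granulocytes and 11.4% of 4553 against erythroblasts. None of the 7 was lower by that fold, where 6.92%, 2.74%, 9.38% and 8.85% of the same genes were. The median log2 ratio of the 7 members (sums below 3 UMIs set to 3) was 5.30, 6.12, 5.63 and 6.35 in the same order, beside medians over all tested genes of -0.27, -0.32, 0.18 and -0.06. Ighm alone had at least 20 UMIs in every other population (36 to 168). Igkc had them in all but the T lymphocytes, and Cd79b only in the progenitor/stem cells. Otherwise the members reached that minimum only through the B lymphocytes, where they were high. This favours such calls, so these counts and medians follow in part from the filter. Scaled by scran size factors, the summed log2 ratio over erythroblasts was 5.02 rather than 6.17 and that over granulocytes 4.93 rather than 5.54, while the median gene shifted by -0.67 and -0.54.

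**Figure D1:**
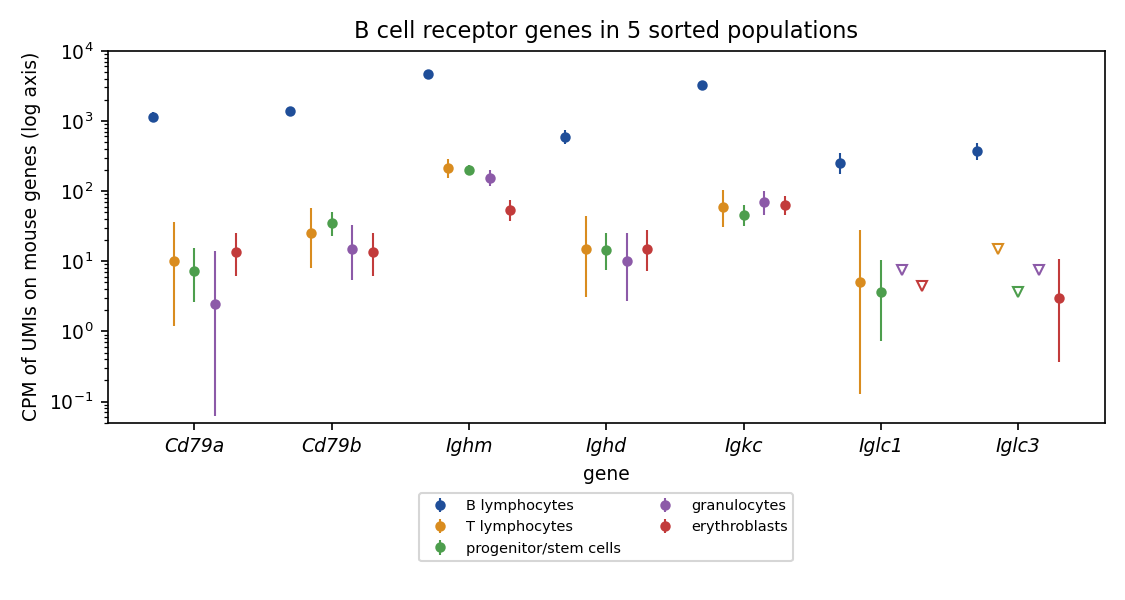
CPM of UMIs on mouse genes (log axis) for the 7 measured genes in the 5 sorted populations, each point a sum over wells and each line its 95% exact Poisson counting interval; open triangles mark populations with no UMI, drawn at the level of 3 UMIs. The B lymphocyte points sit between 250 and 4668 CPM and above every other population, and outside B lymphocytes the highest points are those of Ighm in T lymphocytes, progenitor/stem cells and granulocytes, at 154 to 215 CPM.

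The signalling chains were close to each other in level. Cd79a, the alpha chain of the signalling heterodimer, was at 1149 CPM (976 to 1344) in B lymphocytes, 9.98 CPM in T lymphocytes, 7.19 CPM in progenitor/stem cells, 2.48 CPM in granulocytes and 13.5 CPM in erythroblasts. Cd79b, its partner, was at 1370 CPM (1180 to 1581) in B lymphocytes, 25.0 CPM in T lymphocytes, 34.7 CPM in progenitor/stem cells, 14.9 CPM in granulocytes and 13.5 CPM in erythroblasts. The counting intervals of the 4 non-B populations overlapped for both genes.

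Per Cd79b UMI there were 0.839 Cd79a UMIs (0.674 to 1.04) in B lymphocytes and 0.207 (0.0702 to 0.507) in progenitor/stem cells, where 29 Cd79b UMIs were spread over 27 of 95 wells against 6 Cd79a UMIs in 5 wells. These ratio intervals did not overlap. Among the B lymphocyte wells 39 of 44 held a UMI of Cd79a and 42 of 44 one of Cd79b, and the highest single wells held 16 and 12 UMIs.

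Among the heavy chain genes Ighm had the most UMIs of the group. It was at 4668 CPM (4312 to 5046) in B lymphocytes, 215 CPM (155 to 289) in T lymphocytes, 201 CPM (172 to 234) in progenitor/stem cells, 154 CPM (118 to 197) in granulocytes and 54.0 CPM (37.8 to 74.8) in erythroblasts. The B lymphocyte level was thus 21.8-fold (16.0 to 30.4) that of the T lymphocytes and 86.5-fold (61.8 to 125) that of the erythroblasts, and among the non-B populations only the erythroblasts stood clear of the others, whose intervals overlapped.

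Ighd was at 589 CPM (467 to 733) in B lymphocytes, 15.0 CPM in T lymphocytes, 14.4 CPM in progenitor/stem cells, 9.91 CPM in granulocytes and 15.0 CPM in erythroblasts. The 4 low levels did not differ beyond their counting intervals. Ighm outnumbered Ighd by 7.93 UMIs to 1 (6.27 to 10.1) over B lymphocytes, and 24 of 44 wells held an Ighd UMI against 42 for Ighm. The 7 other immunoglobulin constant genes of the list (Ighg1, Ighg2b, Ighg2c, Ighg3, Igha, Ighe and Iglc4) were analysed here only for Igha, with 1 UMI in B lymphocytes and none elsewhere.

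Igkc carried most of the light chain UMIs. It was at 3284 CPM (2986 to 3603) in B lymphocytes, 59.9 CPM (30.9 to 105) in T lymphocytes, 45.5 CPM (32.2 to 62.5) in progenitor/stem cells, 69.4 CPM (46.1 to 100) in granulocytes and 63.0 CPM (45.4 to 85.2) in erythroblasts. The 4 low levels did not differ beyond their counting intervals, and the B lymphocyte level was 47.3-fold to 72.2-fold above them.

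Outside the B lymphocytes the lambda genes gave 6 UMIs in all. Iglc1 was at 250 CPM (173 to 350) in B lymphocytes, from 34 UMIs, and had 1 UMI in T lymphocytes, 3 in progenitor/stem cells and 0 in granulocytes and erythroblasts. Iglc3 was at 368 CPM (273 to 485) in B lymphocytes, from 50 UMIs, and had 2 UMIs in erythroblasts and 0 in the other 3 populations. With a sum of 0 set to 3 UMIs, Iglc3 was 49.5-fold higher in B lymphocytes than in granulocytes and 24.6-fold higher than in T lymphocytes. Set likewise, Iglc1 was 33.7-fold higher than in granulocytes and 55.6-fold higher than in erythroblasts. With the counts as they were, the lower interval bounds of these ratios were 38.8-fold, 19.3-fold, 25.9-fold and 42.8-fold in the same order.

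Shares of wells with a UMI rise with depth, so every well was also thinned to 1000 UMIs, leaving out the 5 wells below that number. Before thinning Ighm was seen in 95.5% of B lymphocytes, 51.2% of T lymphocytes, 47.4% of progenitor/stem cells, 38.5% of granulocytes and 18.8% of erythroblasts. After thinning the shares were 93.0% (80.9 to 98.5) in B lymphocytes, 11.9% (3.98 to 25.6), 11.6% (5.92 to 19.8), 17.0% (10.1 to 26.2) and 4.21% (1.16 to 10.4). For Igkc the thinned share was 86.0% (72.1 to 94.7) in B lymphocytes and 4.21% to 8.51% elsewhere, with overlapping intervals.

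The thinned shares of the other members kept the same split between B lymphocytes and the rest. Cd79a was seen in 58.1% of thinned B lymphocytes and in at most 2.11% of any other population, Cd79b in 62.8% and at most 4.76%, and Ighd in 27.9% and at most 3.16%. Iglc1 was seen in 16.3% and Iglc3 in 27.9% of thinned B lymphocytes, and neither was seen in any thinned well of another population, for which the upper interval bounds run from 3.81% for 95 wells to 8.41% for the 42 T lymphocyte wells.

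The ratio of heavy to kappa constant UMIs was not the same in all populations. There were 1.42 Ighm UMIs per Igkc UMI (1.26 to 1.61) in B lymphocytes, 3.58 (1.86 to 7.47) in T lymphocytes, 4.42 (3.09 to 6.46) in progenitor/stem cells, 2.21 (1.40 to 3.59) in granulocytes and 0.857 (0.534 to 1.37) in erythroblasts. The intervals of the T lymphocytes and the progenitor/stem cells lay above that of the B lymphocytes, and those of the granulocytes and erythroblasts overlapped it. Of the 43 Ighm UMIs of the T lymphocytes, 8 lay in well O4, which held no Igkc UMI. The part of that well in the ratio was not tested.

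**Figure D2:**
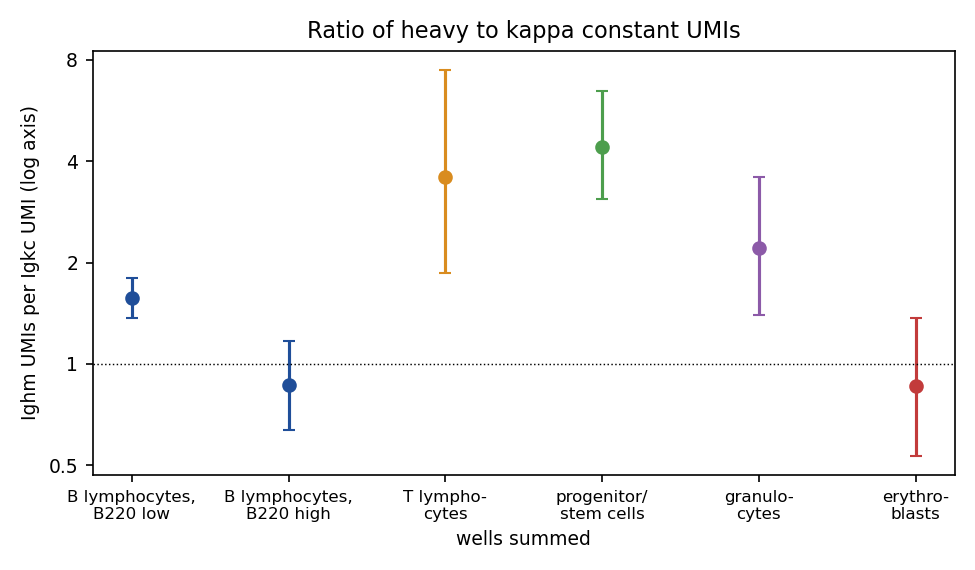
Ighm UMIs per Igkc UMI (log axis) in the summed wells of each population, with the B lymphocytes divided at a B220 fluorescence of 2000 arbitrary units; lines are 95% exact conditional binomial counting intervals and the dotted line marks equal numbers. The ratio runs from 0.857 in erythroblasts to 4.42 in progenitor/stem cells, with B220-low wells at 1.57 and B220-high wells at 0.863.

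Single wells show where the Ighm UMIs of the other populations lay. Among the progenitor/stem cells 11 of 95 wells held at least 5 Ighm UMIs, and 8 of these 11 held no Igkc UMI. Well K1 held 18 Ighm UMIs with no UMI of any other member among 24033 UMIs, whereas well M14 held 17 Ighm, 5 Ighd, 5 Igkc, 2 Cd79a and 1 Cd79b UMIs. Among the B lymphocytes 40 of 44 wells held at least 5 Ighm UMIs and only 3 of those lacked Igkc. Counts of a constant region do not tell a transcript of a rearranged gene from one of an unrearranged locus.

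In the erythroblasts 41 of 96 wells held a member UMI. The neighbouring wells C19 to C24 gave 57 of the 108 member UMIs of the 96 erythroblast wells, or 1293 CPM (979 to 1675), against 81.9 CPM (61.0 to 108) in the other 90 wells. Well C19 alone held 19 UMIs, on 6 of the 7 measured members, and wells C21 and C23 held 11 and 10. Without wells C19 to C24 the summed log2 ratio of B lymphocytes to erythroblasts was 7.16 rather than 6.17, that of Cd79a 7.90 rather than 6.41, that of Cd79b 7.74 rather than 6.66, that of Ighm 7.70 rather than 6.43 and that of Igkc 6.41 rather than 5.70.

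The B lymphocyte wells of the same plate columns also stood apart from the rest. In wells B19 to B24 the 4 adult haemoglobin genes took 8.59% of UMIs against 1.90% in the other 38 wells, and the members stood at 9118 CPM (7807 to 10588) against 12091 CPM (11469 to 12738). These 12 wells were singled out after their values were seen, and the part of their position in the member counts was not tested.

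Kappa against lambda was compared well by well. Lambda here is Iglc1 and Iglc3, so UMIs of Iglc2 are missing from the lambda and light chain sums unless they were counted to Iglc3. Over the 44 B lymphocytes there were 446 kappa and 84 lambda UMIs, a kappa share of 84.2% (80.8 to 87.2), and weighting each well equally gave 78.8%. With at least 2 UMIs taken as presence, 25 wells held kappa only, 2 held lambda only, 14 held both and 3 held neither. Presence at 1 UMI left 14 wells with kappa only and 25 with both. The number with both was 8 at 3 UMIs, 8 in wells with at least 2000 UMIs and 4 after thinning to 1000 UMIs.

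The lambda genes were distributed in different ways. Iglc1 was concentrated, with 26 of its 34 UMIs (76.5%) in 3 wells, and the 2 lambda-only wells carried it: A10 with 13 Iglc1 and 0 Igkc UMIs, and B13 with 10 Iglc1, 2 Iglc3 and 0 Igkc UMIs. Iglc3 was spread over 25 wells with no more than 6 UMIs in any, and its top 3 wells held 28.0% of its UMIs.

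Wells with kappa often held Iglc3 as well. Of the 39 wells with at least 2 Igkc UMIs, 24 (61.5%, 44.6 to 76.6) held an Iglc3 UMI and 6 (15.4%, 5.86 to 30.5) an Iglc1 UMI. In the 330 wells of the other populations 2 held an Iglc3 UMI (0.606%, 0.0735 to 2.17) and 4 an Iglc1 UMI (1.21%, 0.331 to 3.07), at median depths of 3880 to 7959 UMIs against 3028 in B lymphocytes. Wells B9 (5 Igkc, 3 Iglc1 and 4 Iglc3 UMIs), B15 (3, 2 and 2) and A15 (7, 2 and 2) held at least 2 UMIs of all 3 genes.

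**Figure D3:**
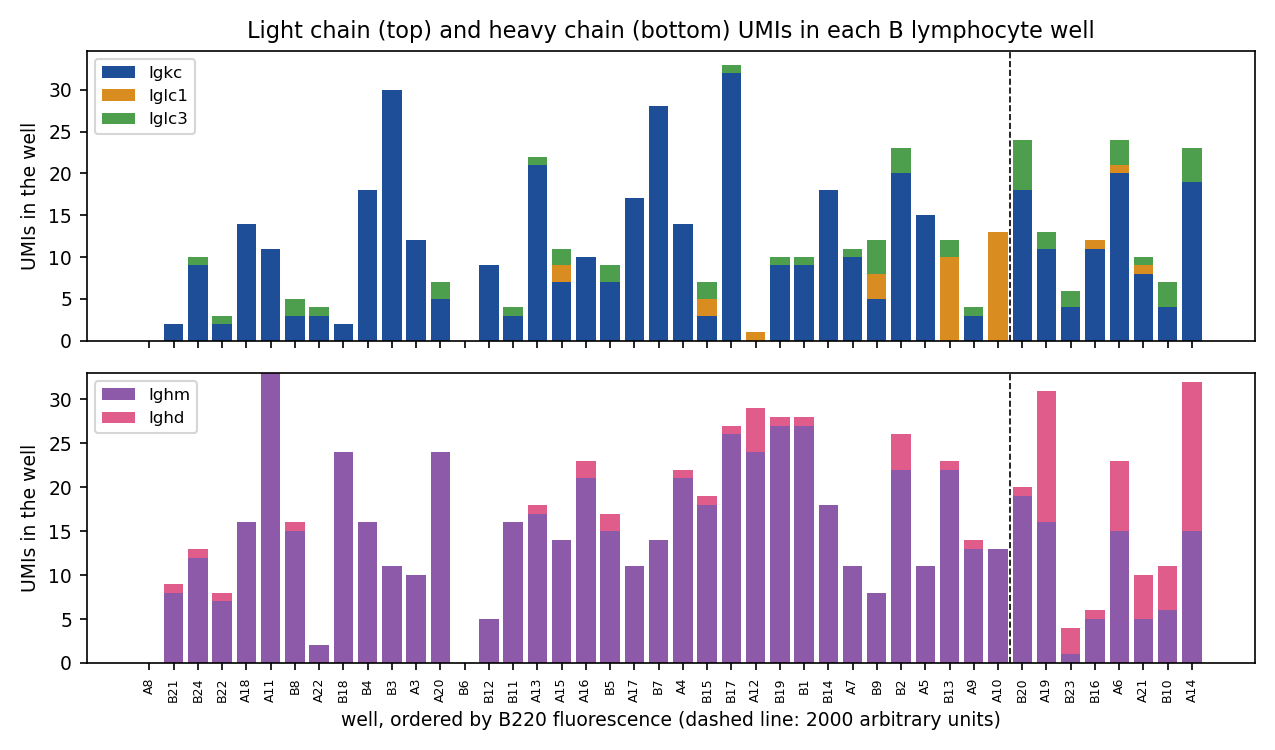
UMIs of the light chain genes (top) and heavy chain genes (bottom) stacked for each of the 44 B lymphocyte wells, ordered from left to right by B220 fluorescence, with a dashed line at 2000 arbitrary units. Iglc1 makes up all 13 UMIs of the light chain bar of A10 and 10 of the 12 of B13, Igkc leads most other bars, wells A8 and B6 are empty, and Ighd makes up much of the heavy chain bars at the right.

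Heavy and light chains were both present in nearly all wells. There were 714 heavy and 530 light chain UMIs, a ratio of 1.35 (1.20 to 1.51), and at least 2 UMIs of each were found in 41 wells, of heavy alone in 1 and of neither in 2. After thinning to 1000 UMIs 32 wells held both chains and 6 heavy alone. The well with heavy chain alone was A12, with 24 Ighm, 5 Ighd, 1 Iglc1 and 0 Igkc UMIs. Since Iglc2 was not analysed, a well that expressed it could be counted as heavy alone. Heavy chain UMIs exceeded light chain UMIs in 23 of the 42 wells with members, equalled them in 4 and fell short in 15.

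The balance of the chains varied widely between wells. The heavy chain share of the heavy and light chain UMIs ran from 26.8% in well B3 (11 heavy, 30 light) through a median of 54.7% to 96.7% in well A12. In CPM per well the heavy and light chains correlated with r = 0.416 and rho = 0.338 over 44 wells, and r was 0.348 without wells A13 and A19. Both values of a well are divided by its own total of UMIs, which thus enters both axes. Among the 34 wells with low B220 that held members r was 0.355 and then 0.105 without the 2 farthest. Cd79a and Cd79b correlated with r = 0.175 and rho = 0.267 over the 44 wells, and r was 0.166 without wells B13 and B17.

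**Figure D4:**
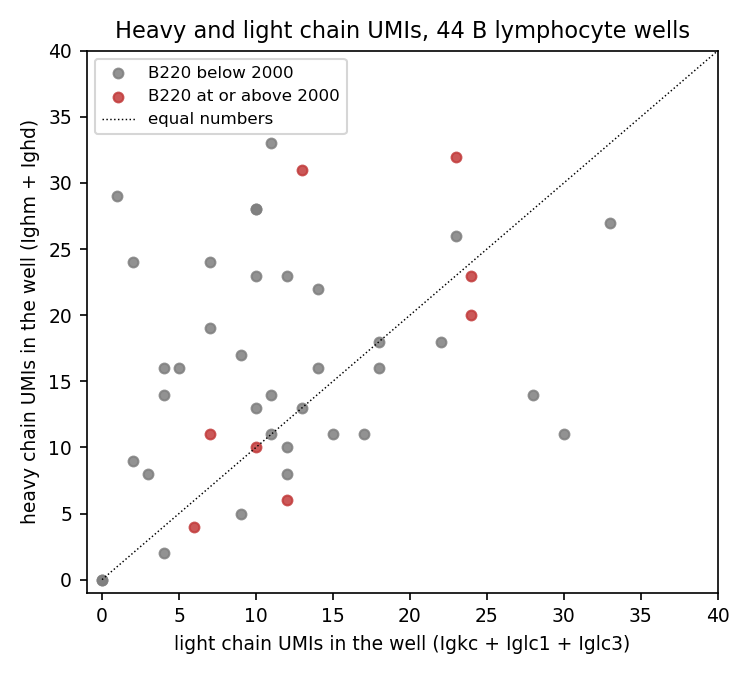
Heavy chain UMIs (Ighm and Ighd) against light chain UMIs (Igkc, Iglc1 and Iglc3) in the 44 B lymphocyte wells, with wells at or above a B220 fluorescence of 2000 arbitrary units in red and a dotted line at equal numbers. Points lie on both sides of the line, 23 above and 15 below it, and 2 wells without members coincide at the origin.

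The B220 fluorescence recorded at the sort divided the B lymphocyte wells into 2 sets with no well between 1718 and 2458 arbitrary units. B220 is an isoform of the phosphatase CD45 and is higher on mature recirculating B cells than on immature ones. There were 8 wells at or above 2000 (20494 UMIs), 7 of them also at or above 2000 for Sca-1, and 36 wells below (115314 UMIs), 1 of them with such Sca-1. Of the 7 measured members, 2 were at least 4-fold higher in the B220-high wells and none lower, where 1.46% of 1029 genes with at least 20 UMIs were higher by that fold and 1.46% lower. These were Ighd, at 12.4-fold, and Iglc3, at 4.08-fold, and Iglc3 fell short of 4-fold in several alternatives, with a log2 ratio of 1.82 by scran, 1.70 as a mean over wells, 1.79 and 1.51 with the divide at 1500 and 3000 arbitrary units, 1.96 without wells A8 and B6 and 1.67 without wells B19 to B24. With sums below 3 UMIs set to 3, Ighd, Iglc1 and Iglc3 could not have been called lower. They held 25, 31 and 29 UMIs in the B220-low wells. The same floor limits which of the 1029 genes could be called lower. Wells are cells of 1 mouse, so the differences between B220-high and B220-low wells carry counting intervals and no test.

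Ighd differed most. It was at 2684 CPM (2022 to 3493) in the B220-high wells and 217 CPM (140 to 320) in the B220-low wells, a log2 ratio of 3.63 (2.92 to 4.37). Per well the lowest, median and highest values were 365, 2290 and 5269 CPM in the B220-high wells and 0, 0 and 1558 CPM in the B220-low wells. All 8 B220-high wells held an Ighd UMI against 16 of 36 B220-low wells, and 6 of the 8 lay above every B220-low well.

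The wells with the most Ighd UMIs were A14 with 17 and A19 with 15, and without both the log2 ratio was 2.93. The B220-low wells with the most were A12 with 5 and B2 with 4, and B2 was the single B220-low well with high Sca-1 (2839 arbitrary units), and without B2 and A8 the log2 ratio was 3.79. Well B20 had the lowest Ighd level among the B220-high wells, at 365 CPM, from 1 UMI beside 19 of Ighm. It also had the lowest B220 of the 8, at 2458 arbitrary units. Well B16, at 3867 arbitrary units, likewise held 1 Ighd UMI, at 639 CPM.

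Ighm did not share this difference. It was at 4001 CPM (3182 to 4967) in the B220-high wells and 4787 CPM (4396 to 5203) in the B220-low wells, a log2 ratio of -0.26 (-0.61 to 0.08). Ighm UMIs per Ighd UMI were thus 1.49 (1.05 to 2.14) in the B220-high wells and 22.1 (14.8 to 34.4) in the B220-low wells. In wells with at least 2000 UMIs the log2 ratio of Ighm was 0.09, so its direction was not settled by these counts.

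The signalling chains differed less. Cd79a was at 1854 CPM (1312 to 2545) against 1023 CPM (847 to 1225), a log2 ratio of 0.86 (0.29 to 1.40), and Cd79b was at 1171 CPM (750 to 1742) against 1405 CPM (1197 to 1639), a log2 ratio of -0.26 (-0.95 to 0.36). Cd79a UMIs per Cd79b UMI were 1.58 (0.926 to 2.76) in the B220-high and 0.728 (0.570 to 0.929) in the B220-low wells, and these intervals just met. In neither gene did a B220-high well exceed the highest B220-low well.

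Among the light chains Iglc3 differed by the larger fold. It was at 1025 CPM (634 to 1566) in the B220-high and 252 CPM (168 to 361) in the B220-low wells, a log2 ratio of 2.03 (1.14 to 2.89), with a UMI in 7 of 8 against 18 of 36 wells. Igkc was at 4636 CPM (3750 to 5667) against 3044 CPM (2734 to 3380), a log2 ratio of 0.61 (0.26 to 0.94). Igkc UMIs per Iglc3 UMI were accordingly 4.52 (2.80 to 7.64) in the B220-high wells and 12.1 (8.28 to 18.3) in the B220-low wells.

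Both lambda-only wells were B220-low, and they had 2 of the highest B220 values below the divide, 1718 arbitrary units in A10 and 1486 in B13. Iglc1 had 3 UMIs in the B220-high and 31 in the B220-low wells, with a log2 ratio of -0.88 whose interval ran from -3.23 to 0.80. With the divide at 1500 arbitrary units, which moves A10 into the B220-high wells, it was 2.08, the opposite direction. Kappa and lambda both reached 2 UMIs in 7 of 8 B220-high wells and in 7 of 36 B220-low wells. The median depth was 2321 UMIs in the former and 3144 in the latter, and the part of depth was not tested.

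**Figure D5:**
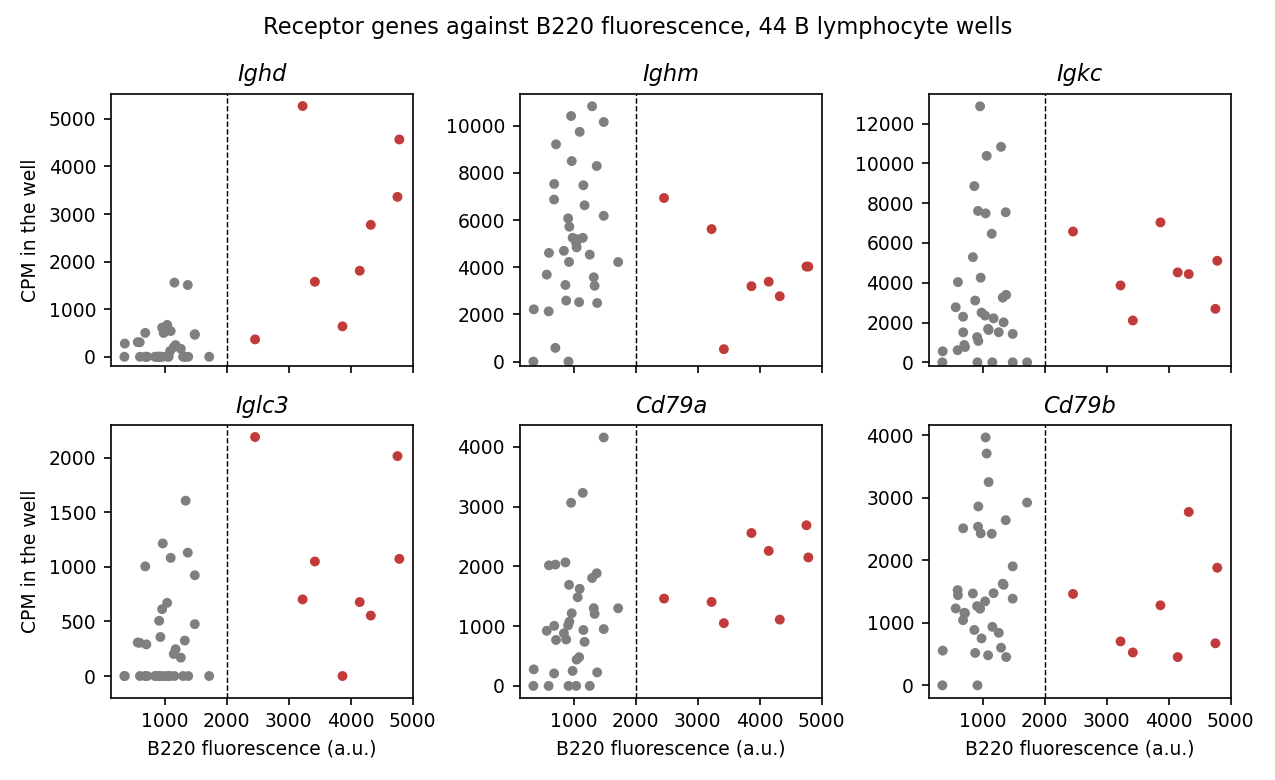
CPM in the well against B220 fluorescence (arbitrary units) for 6 members in the 44 B lymphocyte wells, 1 point per well, with wells at or above 2000 in red and a dashed line at 2000. For Ighd, 6 red points lie above all grey points, the highest at 5269 CPM, while for Ighm and Cd79b the red points lie within the range of the grey ones.

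The other marker lists in these wells were as follows. Erythroblast markers took 3.98% of UMIs in the B220-high and 2.73% in the B220-low wells, with well values of 0.994% to 14.1% and 0.624% to 18.6%, and granulocyte markers took 0.327% and 0.730%, or 0.292% in the B220-low wells without A8. T lymphocyte markers took 0.0146% (3 UMIs) and 0.00607% (7 UMIs), and progenitor markers 0 and 0.0182%. The part of these in the member levels was not tested, and without wells A8 and B6 the log2 ratio of Ighd was 3.57 and without wells B19 to B24 it was 3.95.

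Genes that act with the receptor were counted by list, and a gene was tested against the 4-fold limit where it had at least 20 UMIs in the summed wells compared. Over all tested genes, 4.21%, 2.48%, 5.83% and 11.4% were that much higher than in T lymphocytes, progenitor/stem cells, granulocytes and erythroblasts. Between B220-high and B220-low wells 1.46% were higher and 1.46% lower. Some list genes reached 20 UMIs only through the wells where they were high, which favours such calls. Of 12 kinases, adaptors and effectors close to the receptor, 11 were analysed here. Of the 6 tested against T lymphocytes 4 were at least 4-fold higher in B lymphocytes. So were 5 of 9 against progenitor/stem cells, 4 of 8 against granulocytes and 4 of 5 against erythroblasts. The median log2 ratios were 3.99, 2.55, 3.07 and 5.67. Syk, the kinase that binds the phosphorylated tails of Cd79a and Cd79b, had 151 UMIs in B lymphocytes, Blnk, the adaptor downstream of Syk, had 56, and Blk, a Src family kinase of B cells, had 52. Syk was lower in the B220-high wells (5 against 146 UMIs, log2 ratio -2.38, interval -4.02 to -1.12) and the scaffold Bank1 higher (12 against 8 UMIs, 3.08, interval 1.67 to 4.57).

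Inhibitory co-receptors and phosphatases, 8 in all, were less uniform. In the B lymphocytes 3 of 5 tested were at least 4-fold higher than in T lymphocytes, 3 of 5 than in progenitor/stem cells, 5 of 5 than in erythroblasts and 2 of 6 than in granulocytes, where 1 was lower by that fold, and the median log2 ratios were 3.22, 3.41, 4.96 and 0.74. Siglecg, a sialic acid binding inhibitor of the receptor, had 58 UMIs in B lymphocytes, Cd72 had 45, and Ptpn6, a phosphatase of many blood cells, had 42 there and 165 in granulocytes. None of the 4 tested was called 4-fold higher or lower in the B220-high wells. They held 27 to 50 UMIs in the B220-low wells. With the floor of 3 UMIs and the smaller total of the B220-high wells, none could have been called lower, so a lower level was not assessed.

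Of the 7 surrogate light chain and recombination genes, 2 had enough UMIs to compare B220-high with B220-low wells, and both were at least 4-fold lower in the B220-high wells. Over all tested genes 1.46% were lower by that fold. Both genes reached the minimum of UMIs through the B220-low wells, where they were high, which favours such calls. The rest of the list was not tested, so the count does not describe the list as a whole. Vpreb3, which associates with immunoglobulin chains in developing B cells, had 201 UMIs in B lymphocytes and Rag1, a subunit of the recombinase, had 89. In the B220-high wells Vpreb3 was lower (4 against 197 UMIs, log2 ratio -3.13, interval -5.02 to -1.75) and so was Rag1 (3 against 86 UMIs, -2.35, interval -4.65 to -0.75). Well A19 held 3 of those 4 Vpreb3 UMIs and 2 of those 3 Rag1 UMIs, and without A19 and A14 the log2 ratios were -4.57 and -3.38. With the divide at 1500 arbitrary units that of Rag1 was -1.30, short of 4-fold. Of this list of 7, 2 of 2 tested against T lymphocytes, 2 of 3 against progenitor/stem cells, 2 of 3 against granulocytes and 2 of 2 against erythroblasts were at least 4-fold higher. Dntt, the polymerase that adds bases at segment junctions, was the exception with 5 UMIs in B lymphocytes and 325 in progenitor/stem cells. Rag1 held at most 5 UMIs in any other population, so in these comparisons it reached the minimum only through the B lymphocytes. So did Vpreb3 against T lymphocytes (9 UMIs), progenitor/stem cells (9) and granulocytes (12), though not against erythroblasts (22). The calls of both genes follow in part from that.

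Of 10 B lineage transcription factors, counting a coactivator, 9 were analysed here, without the coactivator. Those at least 4-fold higher in B lymphocytes were 5 of 7 tested against T lymphocytes and 4 of 6 against progenitor/stem cells. Against granulocytes and against erythroblasts they were 5 of 6 each. Tcf3 had 68 UMIs in B lymphocytes and Foxo1 and Ebf1 57 each. Irf4, which takes part in light chain rearrangement and in plasma cell fate, was lower in the B220-high wells by its sum (2 against 50 UMIs, log2 ratio -2.15, interval -5.24 to -0.22), although with its B220-high sum set to the floor of 3 UMIs it did not reach 4-fold.

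Genes raised in mature recirculating B cells were higher in the B220-high wells for 4 of 8 tested of a list of 12, with a median log2 ratio of 2.86 beside -0.17 over all tested genes. Cd74, the invariant chain, was at 180 against 67 UMIs (log2 ratio 3.92), and the MHC class II chains H2-Aa, H2-Ab1 and H2-Eb1 had log2 ratios of 4.12, 4.35 and 4.55. Against the T lymphocytes 6 of 9 tested of this list were at least 4-fold higher in B lymphocytes and 1 lower, against progenitor/stem cells 7 of 9, against granulocytes 6 of 9 and against erythroblasts 8 of 8. Of the 6 plasma cell markers 5 were analysed here. Mzb1 had 32 UMIs in B lymphocytes, Sdc1 9 and Xbp1 1, and Prdm1 and Derl3 had none. These 5 took 0.0309% of UMIs. For the 1 or 2 of them tested in each comparison the level was at least 4-fold higher in B lymphocytes. Mzb1 held only 1 or 2 UMIs in each other population. It was thus tested only because it was high in B lymphocytes, and its calls follow from that. Sdc1 was tested only against progenitor/stem cells (9 against 13 UMIs), with a log2 ratio of 2.09, where 2.48% of all tested genes were that much higher. These calls do not describe the list as a whole.

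Per well Cd74 ran from 5 to 51 UMIs with a median of 17 in the B220-high wells and from 0 to 20 with a median of 0 in the B220-low wells. A14 and A6, both B220-high, held 17 and 8 Ighd with 43 and 51 Cd74 UMIs, while B20 and B16, also B220-high, held 1 Ighd each with 22 and 14 Cd74 UMIs. Among B220-low wells B17 held 1 Ighd and 20 Cd74 UMIs, B2, the well with a high CD3 label, 4 Ighd and 17 Cd74 UMIs, and A12 5 Ighd with 1 Cd74, 6 Vpreb3 and 7 Rag1 UMIs. The lambda-only wells A10 and B13 held 4 and 3 Rag1 UMIs.

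Variable and joining segments, which lie farther from the 3′ tags than the constant part, gave few UMIs. The part of position in this was not tested. The 24 variable and joining segments analysed here summed to 43 UMIs in B lymphocytes, in 21 wells, against 1 in T lymphocytes, 6 in progenitor/stem cells, 5 in granulocytes and 1 in erythroblasts. The kappa joining segments gave 25 of the 43, led by Igkj5 with 8, Igkj4 with 7 and Igkj3 with 6, and the kappa variable segments gave 9.

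Over the 5 populations the genes whose log2(CPM + 10) followed the summed members most closely, among 6317 genes with at least 50 UMIs and leaving out the members themselves, were Nedd8 (r = 0.997), Fam129c (0.995), Pex19 (0.995), Ebf1 (0.994) and Chst3 (0.990). The likeness is one of pattern and not of range: Nedd8 was at 162 CPM in B lymphocytes and 85.5 to 99.8 CPM elsewhere, whereas Fam129c was at 685 CPM and 6.00 to 9.98 CPM and Chst3 at 427 CPM and at most 2.40 CPM. With 5 points, 1 of them far from the rest, such a correlation mainly sets the B lymphocytes against the others.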

How the data were processed

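The authors deposited UMI counts per gene and well as whole numbers, not normalized. Their software, scPipe, maps reads to exons (with Rsubread by default), assigns them to wells by barcode and merges UMIs that lie within a small Hamming distance, so that a count is a number of tagged molecules and reads shared by near copies are uncertain. Aligner version, build, gene models and strand setting were not given in the sources used here. Barcode and UMI positions in read 1 are stated in contradictory ways by the labels.

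Table columns were joined to samples through the well name, which left 9 columns unused. The paper removed outlier cells by quality metrics before its own comparison. No such removal was made here, so all 374 labelled wells are in the sums, down to a granulocyte well with 8 UMIs. Spike-in transcripts were left out of totals. Symbols, coordinates and transcript sequences are those of GENCODE M21. UMIs were summed over the wells of a population and divided by the UMIs on mouse genes in Python 3.11.15 with scipy 1.17.1. Ratios over all genes used those with at least 20 UMIs in both populations together, and sums below 3 UMIs were set to 3 for counts of genes and for medians. Wells were thinned once with a fixed seed. The scripts were tested on simulated counts. The study compared B with T lymphocytes by an edgeR likelihood ratio test over single cells, which was not repeated because all cells came from 1 mouse. Alternatives used scran 1.30.0 size factors, the TMM factors of edgeR 4.0.16, other filters and other wells.

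The members and the gene lists were chosen with earlier results of these data known. The lists cover other immunoglobulin constant genes, signalling proteins near the receptor, inhibitory co-receptors, surrogate light chain and recombination genes, B lineage transcription factors, mature B cell genes, plasma cell markers and markers of the 5 sorted populations. A list gene is named with values where it is among the 3 of its list with the most UMIs in the B lymphocytes, or has at least 20 UMIs there and differs at least 4-fold between B220-high and B220-low wells. The 5 genes most like the summed members and the 3 most abundant segments are named too. Values of 1 further gene are not reported here, and it was taken out of the lists before they were counted.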

Additional observations from a re-analysis of the deposited data

How the results depend on the processing

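In every alternative run each measured member stayed higher in the B lymphocytes, no ratio of the members summed changed sign, and the log2 ratio of Ighd between B220-high and B220-low wells stayed within its interval. The summed level in the B lymphocytes was 12751 CPM as a mean over wells, 15702 CPM without Gm42418, mitochondrial and ribosomal RNA genes in the total, and 10953 CPM in wells with at least 2000 UMIs. The summed log2 ratio over the progenitor/stem cells was 5.51 as a mean over wells and 5.73 with scran. Over the granulocytes it was 4.93 with scran and 4.88 with TMM. Over the erythroblasts it was 5.02 with scran and 5.42 with TMM. Chosen after seeing the data, leaving out the 3 wells of the other population with the most member UMIs gave 5.60 over the progenitor/stem cells and 6.80 over the erythroblasts, and leaving out C19 to C24 gave 7.16. With all genes of at least 1 UMI, 232, 6410, 762 and 7513 genes were at least 4-fold higher than in the T lymphocytes, progenitor/stem cells, granulocytes and erythroblasts. The numbers 6410 and 7513 include, by construction, every gene with at most 3 UMIs in both populations, since sums at the floor of 3 UMIs differ by the ratio of the totals. At 2-fold the numbers were 302, 548, 905 and 1096. The kappa share was 78.8% with wells weighted equally, heavy over light was 1.20 with Ighm alone, and 14 wells held kappa only at 1 UMI. The alternative with Iglc4 among the lambda genes was not run, since no counts of it were at hand. No paired analysis was possible because the groups share no replicate and no test was made. The number of wells with kappa and lambda was 25 at 1 UMI, 8 at 3 UMIs, 8 in wells with at least 2000 UMIs and 4 after thinning. Thinning to 1000 UMIs lowered the share of B lymphocyte wells with a UMI to 58.1% for Cd79a, 62.8% for Cd79b and 27.9% for Ighd and Iglc3, from 88.6%, 95.5%, 54.5% and 56.8%.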
